A study of Mus musculus with 15 samples.

Results

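The CpGs described here lie at the distal ends of the mouse autosomes. They are the listed positions of chromosomes 1 to 19 that fall within 3 Mb of the last listed position of the same chromosome, 4814 of the 204492 CpGs in the deposited count files, or 2.35%. The choice used position only, with no methylation value. Sperm DNA of 8 male C57BL/6 mice labelled with the diet PR (protein restricted) and of 7 labelled with the diet Control, all of generation G1, had been profiled by reduced representation bisulfite sequencing (RRBS), in which genomic DNA is cut with MspI at CCGG and unconverted cytosines are read as methylated. The labels do not say whether the sampled mice or their parents ate the diet, and they give no age, litter or batch. They call the libraries separate samples and no more, so that p-values here measure the spread between these libraries.

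Mouse chromosomes have their centromere at one extreme, so the far end of each chromosome carries ordinary genes up to the telomeric repeats. Telomeric repeats themselves contain no CpG, while the subtelomeric DNA beside them is commonly rich in segmental duplications and is methylated in most cells. In sperm most of the genome is highly methylated and CpG islands at promoters are the main exception. Every position in the deposited list had at least 11 methylated reads in every library, so CpGs with little methylation are hardly listed unless they are deeply covered. In the ends, CpGs with a mean under 50% had a mean coverage of 67.6 reads, those from 50 to 80% 52.9 reads and those of 90% or more 34.6 reads.

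Depth was the sum of read counts over positions. It ran from 133894 to 230679 at the ends in PR libraries and from 152407 to 231279 in Control libraries, which was 1.81 to 2.18% of all counts. The median coverage of an end CpG was 26 to 40 reads in PR libraries and 28 to 43 in Control libraries. No pair of libraries held identical counts, and none was merged. Over the 105 pairs the chi-square of their counts per end CpG ran from 0.997 to 1.21. Values this near 1 do not tell separate mice from repeats of the same mouse. Regions upstream of a pair of paternally methylated imprinted genes, which are methylated in sperm, were high in both diets. There, 3 CpGs upstream of Meg3 averaged 97.2% ± 3.19 (SD, n = 8) in PR and 98.9% ± 0.822 (SD, n = 7) in Control sperm, and 4 CpGs upstream of Rasgrf1 averaged 92.1% ± 3.20 (SD, n = 8) in PR and 92.9% ± 1.99 (SD, n = 7) in Control sperm. No listed CpG lay within 5 kb upstream of H19. CpGs with little methylation are hardly listed, so these high levels do not test whether the DNA was all from sperm.

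Promoters were rarely represented among the end CpGs. Of 1083 promoter windows in the ends, each running from 250 bases before to 50 bases after a RefSeq start (build GRCm38.p6), 10 held at least 1 listed CpG, or 0.923%, against 309 of 30282 elsewhere on the autosomes, or 1.02%. The 10 windows belong to 9 genes and hold 18 listed CpGs. They contained 7 CG dinucleotides on average, against 20.7 in the end windows that hold the letters CCGG but no listed CpG. The median was 6 in the windows with a listed CpG and 8 over all end windows, with or without CCGG. The letters CCGG, a palindrome read alike on both strands, occurred in 57.7% of the end windows and in 53.3% of the others, and in 9 of the 10 windows with a listed CpG. None of the 18 listed CpGs was the CG inside a CCGG. Over all 31365 windows 12 of 711 were, and each of the 711 fell on a CG of the reference.

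The following 6 windows show which sequence the listed promoter CpGs sit in, given 5′ to 3′ on the gene's strand with the listed CG in capitals. Both starts of Gm16008, a long non-coding RNA, are shown because they differ in level. Gm42788, another long non-coding RNA, has the most listed CpGs, and Ccdc27, Smim41 and Timeless are protein-coding genes whose listed CpGs in these windows were almost fully methylated. The Timeless window is at a RefSeq start inside the gene span (128232063 to 128252941), not at the 5′ end of the gene. The 6 windows lie at chr4:156031613-156031912 (minus strand) and chr4:156023775-156024074 (minus strand) for Gm16008, chr5:149144013-149144312 (plus strand) for Gm42788, chr4:154042628-154042927 (minus strand) for Ccdc27, chr15:101292975-101293274 (plus strand) for Smim41 and chr10:128237816-128238115 (plus strand) for Timeless.
Gm16008 upstream start: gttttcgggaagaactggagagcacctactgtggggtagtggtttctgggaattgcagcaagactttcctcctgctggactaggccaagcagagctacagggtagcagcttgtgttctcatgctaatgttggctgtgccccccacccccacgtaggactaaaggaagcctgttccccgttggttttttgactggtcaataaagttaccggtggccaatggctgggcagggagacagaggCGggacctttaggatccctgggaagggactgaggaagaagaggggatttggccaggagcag
Gm16008 downstream start: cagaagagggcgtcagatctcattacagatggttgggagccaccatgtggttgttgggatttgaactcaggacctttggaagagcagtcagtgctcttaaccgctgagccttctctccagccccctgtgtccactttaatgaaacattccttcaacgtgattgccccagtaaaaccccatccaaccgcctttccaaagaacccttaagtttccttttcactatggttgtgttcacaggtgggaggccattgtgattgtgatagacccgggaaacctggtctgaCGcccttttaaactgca
Gm42788: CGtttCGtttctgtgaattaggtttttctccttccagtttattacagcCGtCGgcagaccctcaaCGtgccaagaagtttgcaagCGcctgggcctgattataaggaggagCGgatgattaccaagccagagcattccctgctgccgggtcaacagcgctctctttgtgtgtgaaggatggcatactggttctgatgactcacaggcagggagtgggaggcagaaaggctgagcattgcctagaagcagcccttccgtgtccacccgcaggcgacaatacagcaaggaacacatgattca
Ccdc27: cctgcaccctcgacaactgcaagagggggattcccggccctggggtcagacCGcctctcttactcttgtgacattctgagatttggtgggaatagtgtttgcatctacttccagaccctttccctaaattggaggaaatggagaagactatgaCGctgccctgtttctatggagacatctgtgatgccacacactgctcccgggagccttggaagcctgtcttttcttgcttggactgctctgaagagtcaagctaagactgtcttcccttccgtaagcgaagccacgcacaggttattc
Smim41: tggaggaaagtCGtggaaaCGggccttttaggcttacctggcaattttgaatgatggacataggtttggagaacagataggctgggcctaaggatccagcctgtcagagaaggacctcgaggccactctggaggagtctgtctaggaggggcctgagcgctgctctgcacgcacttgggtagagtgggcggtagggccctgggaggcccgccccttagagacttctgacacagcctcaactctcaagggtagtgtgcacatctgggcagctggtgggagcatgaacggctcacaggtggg
Timeless: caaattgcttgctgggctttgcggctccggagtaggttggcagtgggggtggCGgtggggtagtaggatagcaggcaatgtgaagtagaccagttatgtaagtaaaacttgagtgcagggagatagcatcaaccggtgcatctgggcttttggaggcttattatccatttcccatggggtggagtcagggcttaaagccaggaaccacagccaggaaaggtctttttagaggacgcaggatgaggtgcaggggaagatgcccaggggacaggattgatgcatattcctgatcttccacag

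At the upstream start of Gm16008 the listed CpG was partly methylated, with a lowest, median and highest value of 41.0%, 54.2% and 66.7% in PR libraries and 40.0%, 57.5% and 66.7% in Control libraries. At its downstream start the values were 92.0%, 97.7% and 100% in PR libraries, and 100% in each Control library. Both diets overlapped at the first start, and at the second the PR libraries reached down to 92.0%. The unadjusted p of the second CpG was 0.0383 by the quasi-binomial model described with the diet comparison, and its adjusted p was 1. The 7 listed CpGs of Gm42788 averaged 91.7% ± 2.42 (SD, n = 8) in PR and 90.4% ± 2.93 (SD, n = 7) in Control sperm. The 2 of Ccdc27 averaged 98.7% ± 1.93 in PR and 98.0% ± 1.46 in Control sperm. The CpG of Timeless, a replication fork protein related to a fly clock gene, was at 97.7% ± 2.89 in PR and 99.2% ± 2.22 in Control sperm, and the 2 CpGs of Smim41 were at 95.9% ± 2.34 in PR and 95.2% ± 2.57 in Control sperm. All of these windows but the upstream one of Gm16008 were above 90% on average in both diets.

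The ends together were as dense in listed CpGs as other sequence but differed widely from each other. They held 84.5 listed CpGs per Mb, against 84.4 per Mb over the rest of the autosomes. The end of chromosome 4 held 628, or 209 per Mb and 2.42 times the density of the rest of that chromosome. The ends of chromosomes 5 and 11 followed with 506 and 503. At the other extreme, the end of chromosome 3 held 64, that of chromosome 18 held 78 and that of chromosome 17 held 92, at 0.306, 0.310 and 0.285 times the density of the rest of their chromosomes. In all, 7 ends were denser and 12 sparser than the rest of their chromosome. The ends overlap 1417 annotated genes, 732 of them protein-coding, and 489 had at least 1 listed CpG. Within gene spans lay 62.8% of the end CpGs, against 61.9% of the other autosomal CpGs, and the share ran from 5.43% on chromosome 17 to 89.7% on chromosome 14. Whether a CpG lay in an exon, an intron or a UTR was not analysed here.

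**Figure D1:**
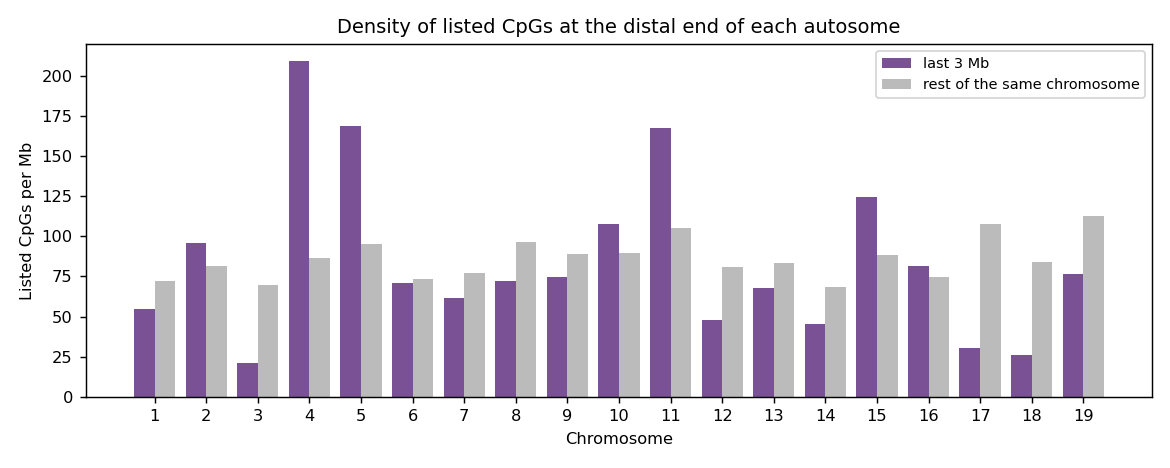
Listed CpGs per Mb in the last 3 Mb of each autosome (purple bars) and over the rest of the same chromosome (grey bars). Chromosome 4 stands highest with 209 per Mb, and chromosomes 3, 17 and 18 are the lowest, with 21.3, 30.7 and 26.0 per Mb.

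Sperm methylation at the ends was high and slightly lower than elsewhere. The median CpG stood at 98.1% in the ends and 98.2% over the other 197813 autosomal CpGs. The lower tail was longer at the ends, where 6.61% of CpGs had a mean under 80% and the 10th percentile was 87.3%, against 5.50% and 89.7% elsewhere. CpGs under 50% were not more frequent at the ends, 0.852% against 0.960%. CpGs this low are hardly listed without deep coverage, and positions over 200 reads were 7 of 4814 at the ends and 535 of 197813 elsewhere. The shares under 50% were not compared at equal coverage. The mean over libraries was 94.999% ± 0.143 at the ends and 95.4% ± 0.117 over the rest (SD, n = 15). The ends were lower in 15 of 15 libraries, by a mean difference of -0.372 points and with single differences of -0.526 to -0.284 points (exact two-sided sign-flip permutation p = 6.1e-05, the smallest that 15 libraries allow). This test takes the CpGs as given and asks only whether libraries repeat the difference. With CpGs weighted by their reads the sign turned, to 9.69 points, and it was -1.01 points with positions over 200 reads left out of that sum. The difference was -0.184 points without chromosome 13, and -0.0140 points with 5 Mb in place of 3 Mb (exact sign-flip permutation p = 0.266).

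The lower level was found in the last 1 Mb. There, 12.4% of CpGs had a mean under 80%, against 4.73% from 1 to 3 Mb. The 1174 CpGs less than 1 Mb from the last listed position averaged 92.5% ± 0.216, and the 3640 CpGs from 1 to 3 Mb averaged 95.8% ± 0.124 (SD, n = 15). The difference of the last 1 Mb from the other 2 Mb was -3.249 points, between -3.48 and -3.04 in single libraries (exact sign-flip permutation p = 6.1e-05). With the last 1 Mb left out the sign turned: the CpGs from 1 to 3 Mb were 0.421 points above the rest of the autosomes (exact sign-flip permutation p = 6.1e-05, 15 of 15 libraries). The division at 1 Mb was chosen after the profile by distance had been seen. These values were adjusted over 10 sign-flip tests of this kind without change, each of them at the smallest p possible.

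**Figure D2:**
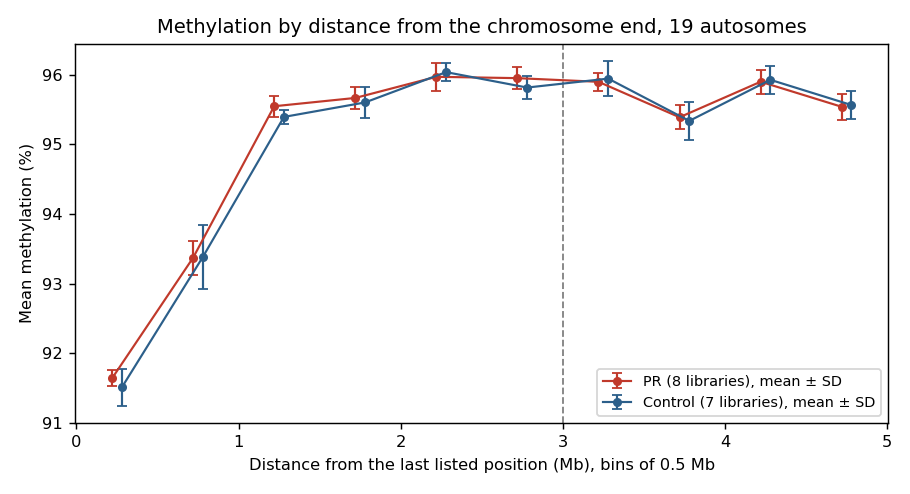
Mean methylation (%) of listed CpGs against distance from the last listed position in bins of 0.5 Mb, PR in red and Control in blue, mean ± SD over libraries; the dashed line marks 3 Mb. Levels are lowest in the last 0.5 Mb, at 91.6% in PR and 91.5% in Control sperm, and lie between 95.3% and 96.0% beyond 1 Mb.

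The lower level near the end was seen on most chromosomes. The last 0.5 Mb stood at 91.6% over 544 CpGs and the next 0.5 Mb at 93.4% over 630. Without chromosome 13 these 2 bins stood at 91.5% and 94.6%. The median of the chromosomes was 91.3% in the last 0.5 Mb, 95.4% in the next and 95.8% from 1 to 1.5 Mb. Across chromosomes the lower level was thus mainly in the last 0.5 Mb. From 1 Mb on, bins of the same width stayed between 95.4% and 96.0% out to 5 Mb. Within 250 kb of the 3 Mb limit, the 621 CpGs just inside it averaged 95.8% and the 579 just outside it 95.9%. On 17 of the 19 chromosomes the last 1 Mb was below the 2 Mb before it. The narrowest of these gaps were -0.0110 points on chromosome 16, -0.569 on chromosome 6 and -0.672 on chromosome 11. The gap was widest on chromosome 3 (84.0% over 12 CpGs, against 97.7%), on chromosome 12 (83.6% over 40 CpGs, against 96.1%) and on chromosome 10 (85.8% over 39 CpGs, against 94.9%). Chromosomes 17 and 19 went the other way, where the last 1 Mb was 7.46 and 1.86 points above the other 2 Mb.

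Gene content and depth also changed toward the end. Gene spans held 38.2% of the listed CpGs in the last 0.5 Mb, against 63.8 to 71.2% in the bins from 0.5 to 3 Mb, and CpGs outside genes were lower in general (93.6% at the ends, against 95.8% within gene spans there). The last 1 Mb was lower both within gene spans (-2.50 points) and outside them (-3.601 points), and among CpGs with at least 20 reads in every library (-4.83 points). Without chromosome 13 the difference was -2.67 points, and with each end weighted equally -3.86 points. Each of these differences was seen in 15 of 15 libraries (exact sign-flip permutation p = 6.1e-05). Mean coverage was 37.6 reads in the last 0.5 Mb, 44.4 in the next and 34.4 to 35.4 from 1 to 3 Mb. Its part in the gap was not tested beyond the coverage minimum.

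**Figure D3:**
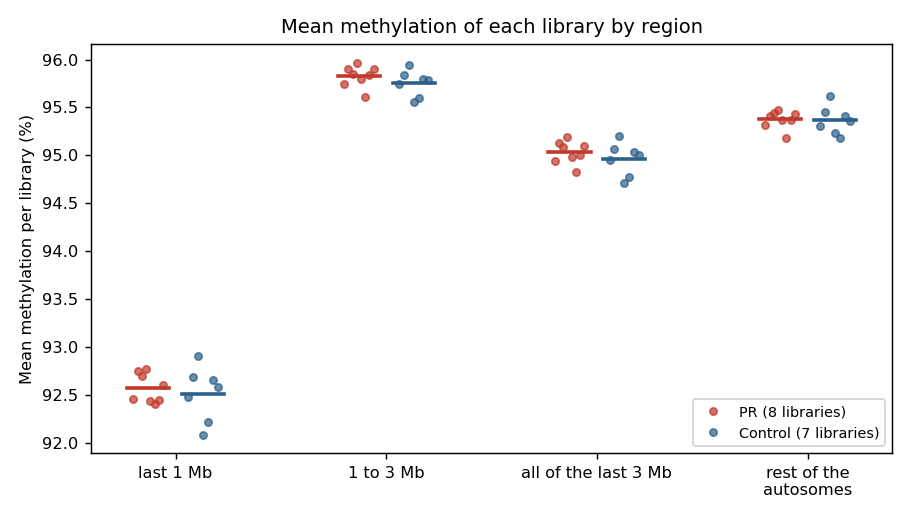
Mean methylation (%) of each library over the last 1 Mb, over 1 to 3 Mb, over all of the last 3 Mb and over the rest of the autosomes; points are libraries (PR red, Control blue) and bars group means. Each library is lowest in the last 1 Mb, at 92.1 to 92.9%, and the diets overlap in every region.

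The ends were lower in 3 of 4 classes of spacing between listed CpGs, and the classes were not compared with each other. CpGs with no other listed CpG within 100 bp averaged 94.6% at the ends and 94.95% over the rest, a difference of -0.303 points. Those with 2 to 3 listed CpGs in that span, itself included, differed by -0.180 points and those with 4 to 7 by -0.588 points, each lower in 15 of 15 libraries (exact sign-flip permutation p = 6.1e-05, adjusted over 4 classes 8.1e-05). The 176 end CpGs with 8 or more averaged 90.3% ± 1.03, against 90.2% ± 0.823 over the 4880 elsewhere (SD, n = 15), and did not differ past the threshold (exact sign-flip permutation p = 0.496).

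The chromosome starts gave a lower level than the distal ends. CpGs within 3 Mb of the first listed position, which lies beside the centromere, averaged 93.7% ± 0.128 (SD, n = 15). The distal ends were 1.26 points higher, in 15 of 15 libraries (exact sign-flip permutation p = 6.1e-05).

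Single ends differed from each other. The end of chromosome 16 was the highest, at 97.6% ± 0.174 (SD, n = 8) in PR and 97.6% ± 0.184 (SD, n = 7) in Control sperm. Chromosome 2 followed at 97.2% ± 0.171 in PR and 97.0% ± 0.344 in Control sperm, and chromosome 7 at 96.3% ± 0.424 in PR and 96.5% ± 0.294 in Control sperm. The end of chromosome 13 was the lowest, at 90.8% ± 0.414 in PR and 90.6% ± 1.03 in Control sperm, next to chromosome 17 at 91.6% ± 0.262 in PR and 91.5% ± 0.630 in Control sperm and chromosome 18 at 92.3% ± 0.764 in PR and 91.8% ± 1.04 in Control sperm. Set against the rest of its own chromosome, the end was lower past an adjusted p of 0.05 on 10 chromosomes and higher on 6, with chromosomes 3, 8 and 19 not past it (exact sign-flip permutation tests, Benjamini-Hochberg over 19). The extremes were -4.65 points on chromosome 13 and 2.69 points on chromosome 16. Coverage at the chromosome 13 end averaged 60.5 reads, against 36.4 over the rest of that chromosome, and the other ends lay between 31.4 and 40.8 reads. Of the 203 listed CpGs at the chromosome 13 end, 39 lie in the single gene Tmem267, which averaged 78.2% at 124 reads. Without that gene the other CpGs of this end lie above the ends of chromosomes 17 and 18. Its lowest rank and its widest gap to the rest of the chromosome thus depend on that gene.

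**Figure D4:**
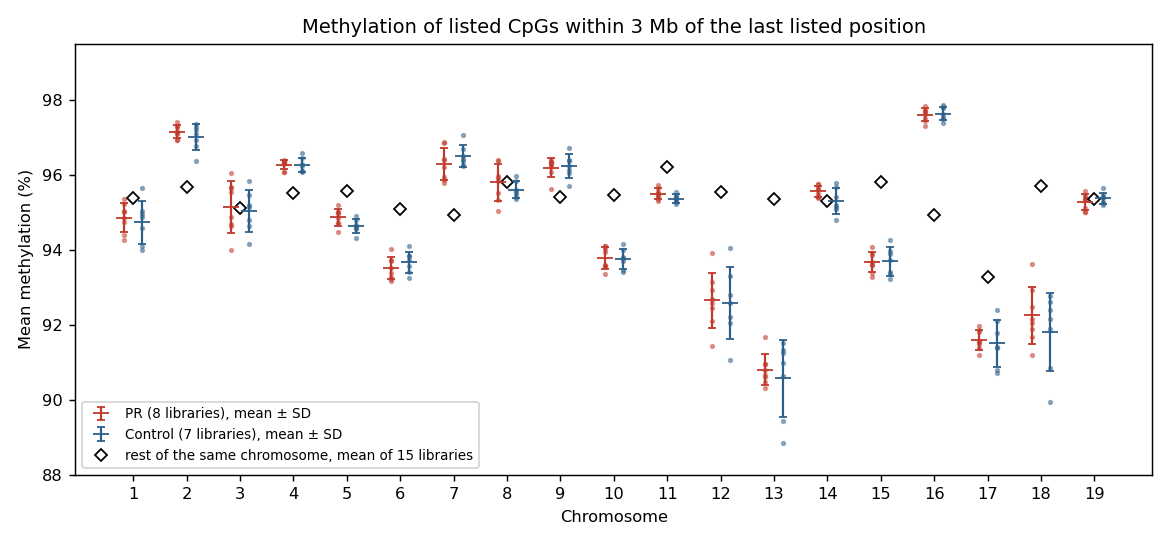
Mean methylation (%) of the last 3 Mb of each autosome, PR libraries in red and Control libraries in blue (points are libraries, with mean ± SD); diamonds mark the rest of the same chromosome. The ends of chromosomes 6, 10, 12, 13, 15, 17 and 18 lie below 94% in both diets and that of chromosome 16 near 97.6%, while PR and Control overlap at every end.

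The genes with most listed CpGs at the ends were nearly fully methylated. Prdm16, a PR domain regulator of brown fat identity (chromosome 4, 154316122 to 154637360), had 125 CpGs with a mean of 97.7% ± 0.259 (SD, n = 8) in PR and 97.5% ± 0.325 (SD, n = 7) in Control sperm. Cdh4, which encodes R-cadherin, had 63 CpGs at 98.1% ± 0.238 in PR and 97.7% ± 0.421 in Control sperm. Pard3, a scaffold of cell polarity, had 49 CpGs at 98.5% ± 0.520 in PR and 98.5% ± 0.245 in Control sperm, and Erg, an ETS transcription factor of endothelium, had 45 CpGs at 98.3% ± 0.304 in PR and 98.0% ± 0.619 in Control sperm. Hhat, the acyltransferase of hedgehog proteins, and Ajap1, an adherens junction protein, had 39 and 38 CpGs with means over all libraries of 96.9% and 98.5%. Fry, Stard13, a RhoGAP, and the long non-coding Gm15411, all on chromosome 5, were a little lower, at 95.2% over 86 CpGs, 94.1% over 45 and 93.9% over 34. The remaining gene of the 10, Tmem267 on chromosome 13, stood apart at 78.2% over 39 CpGs.

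Low levels were found in a few coding and non-coding genes and in sequence outside genes. Among the 311 genes with at least 3 listed CpGs, all of them at an end, 9 had a mean under 80%, or 2.89%, against 2.48% of the genes elsewhere. Of these 9, 3 are protein-coding: Tmem267, Emx2, a homeobox factor of forebrain and urogenital development (75.0% ± 5.20 in PR and 76.0% ± 5.50 in Control sperm), and Itgb7, an integrin subunit of lymphocytes (78.3% ± 4.09 in PR and 78.5% ± 3.94 in Control sperm). Emx2 and Itgb7 were chosen after their values were seen. The overlapping non-coding genes 2810410L24Rik and Gm9734 on chromosome 11 were the lowest. The 4 CpGs of 2810410L24Rik averaged 39.9% ± 3.85 in PR (SD, n = 8) and 41.9% ± 0.937 in Control sperm (SD, n = 7), and the 5 of Gm9734 averaged 40.1% ± 3.51 in PR and 42.7% ± 2.07 in Control sperm. They share 4 CpGs and are one observation. Gm6421, a pseudogene on chromosome 13, was at 73.6% ± 2.82 in PR and 68.4% ± 4.28 in Control sperm, and the long non-coding Gm39119 on chromosome 7 at 72.9% ± 3.79 in PR and 76.0% ± 3.37 in Control sperm. The lowest window of 1 kb was outside genes on chromosome 10 (130503001 to 130504000, 3 CpGs), 78.2 kb from the last listed position. Its lowest, median and highest value were 30.6%, 35.4% and 41.0% in PR libraries and 27.6%, 40.1% and 50.6% in Control libraries, so that the Control libraries spanned the PR ones.

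Hotair, a long non-coding RNA transcribed from the Hoxc cluster of homeobox genes, had an intermediate level. The end of chromosome 15 in which it lies averaged 93.7%, and the last 1 Mb there 87.9%. Its 8 CpGs (chromosome 15, 102945671 to 102945825) had single means between 38.8% and 63.5% at a coverage of 75.5 reads. The window had a lowest, median and highest value of 47.1%, 49.0% and 54.7% in PR libraries and 44.4%, 51.9% and 59.3% in Control libraries. The Hoxc genes beside it had few listed CpGs, 8 at 4 of 9 genes. Hoxc9, with 1 CpG, was at 92.9% ± 5.59 in PR and 89.8% ± 6.64 in Control sperm, Hoxc6 at 91.2% ± 3.65 in PR and 92.4% ± 3.38 in Control sperm, Hoxc10 at 81.1% ± 3.34 in PR and 82.5% ± 4.12 in Control sperm, and Hoxc4 at 82.8% ± 4.57 in PR and 81.7% ± 4.54 in Control sperm (SD, n = 8 for PR and 7 for Control). The 8 CpGs together averaged 86.8% ± 1.204 in PR and 87.0% ± 1.06 in Control sperm.

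The imprinted domain of distal chromosome 7 lies within the last 3 Mb, and its listed CpGs were highly methylated. The whole end of chromosome 7 averaged 96.4% over all libraries. Every listed position had at least 11 methylated reads in every library, so unmethylated CpGs of the domain could not appear here. Of 20 genes of the domain 6 had listed CpGs, 45 in all, at 97.2% ± 0.437 (SD, n = 8) in PR and 97.3% ± 0.502 (SD, n = 7) in Control sperm. H19, a non-coding RNA silent on the paternal chromosome, had 2 CpGs at 97.8% ± 1.33 in PR and 98.4% ± 0.987 in Control sperm. Igf2, the growth factor expressed from the paternal chromosome, had 6 at 97.6% ± 0.781 in PR and 98.1% ± 2.04 in Control sperm. Kcnq1, a potassium channel gene, had 18 at 98.0% ± 0.805 in PR and 98.5% ± 0.642 in Control sperm. Osbpl5, of the oxysterol-binding family, was the lowest of the 6, with 12 CpGs at 94.999% ± 1.16 in PR and 94.3% ± 1.02 in Control sperm and a single CpG at 75.5%. The remaining 2 were Dhcr7, which catalyses the last step of cholesterol synthesis, with 4 CpGs, and Cars, a cysteinyl-tRNA synthetase, with 3. Kcnq1ot1 and the other 13 genes had none. Of the 45 CpGs 20 were higher and 25 lower in PR sperm, against 101894 and 101726 of all 204492, and 0 passed the test between diets.

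Other gene lists at the ends had means from 88.5% to 99.05% over all libraries. Of 19 telomere maintenance genes placed on the autosomes 1 lies in an end: Rtel1, a helicase that unwinds telomeric loops, on chromosome 2, with 13 CpGs at 96.4% ± 1.004 (SD, n = 8) in PR and 96.0% ± 1.42 (SD, n = 7) in Control sperm. Keratins are structural proteins of epithelia, and 11 of the 27 keratin genes in the ends had listed CpGs, all on chromosome 15. Their 27 CpGs averaged 96.2% ± 0.637 in PR and 96.3% ± 0.551 in Control sperm, with Krt75 lowest at 90.1% ± 2.76 in PR and 91.3% ± 1.73 in Control sperm. Olfactory and vomeronasal receptor genes had 17 CpGs at 5 of 83 genes, at 88.6% ± 1.53 in PR and 88.3% ± 1.94 in Control sperm. Vmn2r87, with 10 of them, was at 92.8% ± 1.44 in PR and 92.5% ± 2.04 in Control sperm, and the pseudogene Vmn2r-ps26, with 2, at 57.4% ± 5.80 in PR and 52.5% ± 8.37 in Control sperm. Zinc finger genes with symbols starting Zfp had 28 CpGs at 8 of 10 genes, at 97.7% ± 0.452 in PR and 97.8% ± 0.484 in Control sperm. Zinc finger genes with other symbols, Prdm16 among them, were not in this list. TNF receptor genes had 5 CpGs at 2 of 6 genes, at 98.6% ± 1.52 in PR and 99.6% ± 0.842 in Control sperm. Of 9 chemokine receptor genes Ackr2, a scavenging receptor, had 2 CpGs at 98.1% ± 1.69 in PR and 99.1% ± 1.07 in Control sperm. None of the 8 DNA methylation factors listed lies in an end. No CpG of these lists passed the test between diets, whose counts over all CpGs are given with that comparison.

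Spread between libraries at the ends was mostly that of counting. The dispersion of a CpG, the variance between libraries of 1 diet over that from counting reads, where 1 is counting alone, had a median of 0.965 at the ends and 0.954 over the rest, and exceeded 2 at 2.78% of CpGs in the ends and 2.82% over the rest. Among CpGs with a mean between 10 and 90% the median was 1.19 over 578 at the ends and 1.12 over 20179 elsewhere. Of 656 windows of 1 kb with at least 3 listed CpGs, all at the ends, 36 had a dispersion over 3, or 5.49%, against 3.99% of the windows elsewhere. The median window dispersion was 1.097 at the ends and 1.100 elsewhere. Of the 36, 17 had a mean under 80% and 6 lay on chromosome 13. Windows under 80% made up 5.64% at the ends and 4.15% elsewhere, and the part of level in the spread was not tested. Window counts are summed over CpGs, so a read that covers several CpGs counts once for each. In windows a dispersion above 1 can therefore arise from counting alone, and it is not on the scale of single CpGs. The 656 windows hold 2941 of the 4814 end CpGs.

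The segment at Tmem267, a transmembrane protein gene on chromosome 13 (119488086 to 119610459), had the largest window dispersion. A stretch of 24 CpGs at its edge (119488697 to 119489000) had a dispersion of 41.9 on summed counts. Taken singly, these CpGs had dispersions of 1.24 to 4.94. The lowest, median and highest value of the stretch were 76.2%, 78.8% and 84.0% in PR libraries and 69.6%, 84.3% and 85.5% in Control libraries. Over all 39 listed CpGs of the gene, Control replicates 4 and 1 stood at 68.1% and 71.5%, Control replicate 2 at 77.4%, and the other 4 Control libraries between 81.9% and 83.8%. The 8 PR libraries lay between 75.3% and 81.8%, inside the Control range, and the means were 78.2% ± 2.03 (SD, n = 8) in PR and 78.3% ± 6.25 (SD, n = 7) in Control sperm. Coverage there averaged 124 reads, 2.999 to 5.15 times the median of the end CpGs of the same library in PR libraries and 3.004 to 4.12 times in Control libraries. The 2 lowest Control libraries had 3.37 and 3.70 times. The part of coverage in this spread was not tested.

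The other 3 of the 5 most dispersed windows lay outside genes. On chromosome 5 (148820001 to 148821000, 10 CpGs) the lowest, median and highest value were 60.3%, 73.6% and 86.6% in PR libraries and 61.8%, 77.1% and 83.8% in Control libraries. On chromosome 11 (121883001 to 121884000, 6 CpGs), 90.6 kb from the last listed position, they were 77.2%, 88.7% and 97.1% in PR and 73.6%, 86.0% and 92.6% in Control libraries. On chromosome 1 (193516001 to 193517000, 6 CpGs) they were 85.0%, 90.5% and 92.1% in PR and 76.7%, 91.4% and 97.0% in Control libraries. The diets overlapped in each of these windows, and on chromosome 1 the Control libraries spanned the PR ones.

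**Figure D5:**
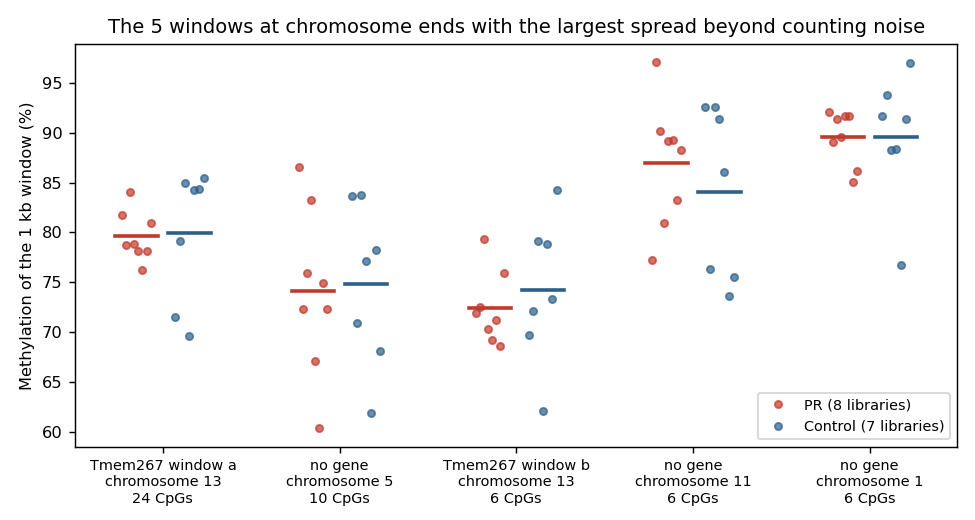
Methylation (%) of each library in the 5 windows of 1 kb with the largest dispersion among the 656 tested at the ends; points are libraries (PR red, Control blue), bars are group means. In the first Tmem267 window the PR libraries lie between 76.2% and 84.0% and the Control libraries between 69.6% and 85.5%, and no window separates the diets.

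The last comparison asked whether the diets differ at the ends. No difference between the means was detectable. The mean of the 4814 CpGs had a lowest, median and highest value of 94.8%, 95.04% and 95.2% in PR libraries and 94.7%, 95.01% and 95.2% in Control libraries. The means were 95.03% ± 0.117 (SD, n = 8) in PR and 94.96% ± 0.170 (SD, n = 7) in Control sperm. PR sperm was thus 0.0682 points higher, with a 95% interval from -0.0928 to 0.230 (p = 0.371, exact permutation test, two-sided). With CpGs weighted by their reads the sign turned, to -0.0892 points (exact permutation p = 0.431). Leaving out Control replicate 4 gave 0.0261 points, leaving out Control replicate 5 gave 0.0365 and leaving out Control replicate 3 gave 0.107. Over the last 1 Mb PR sperm averaged 92.6% ± 0.153 and Control sperm 92.5% ± 0.282, a difference of 0.0554 points (exact permutation p = 0.636, 95% interval -0.194 to 0.305). Of the 19 ends 13 had a higher mean in PR and 6 a lower one, and 0 had a p under 0.05 before or after adjustment (exact permutation tests, lowest Benjamini-Hochberg adjusted p 0.466). The smallest p values were those of chromosome 5 (94.9% ± 0.225 in PR and 94.6% ± 0.187 in Control sperm, exact permutation p = 0.0533), chromosome 11 (95.5% ± 0.141 in PR and 95.4% ± 0.108 in Control sperm, exact permutation p = 0.0718) and chromosome 14 (95.6% ± 0.147 in PR and 95.3% ± 0.347 in Control sperm, exact permutation p = 0.0735).

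Relative to the other autosomal CpGs of the same library, the ends stood at -0.344 ± 0.0389 points in PR sperm (SD, n = 8) and -0.403 ± 0.0598 points in Control sperm (SD, n = 7). These differ by 0.0587 points (95% interval 0.00657 to 0.115), with p = 0.0255 in the exact permutation test and an adjusted p of 0.204 over the 16 comparisons of diets made on regional means. The p was above 0.05 without PR replicate 2 (0.0501 points, exact permutation p = 0.0519), without PR replicate 4 (0.0509 points, p = 0.0519 by the same exact test) and without Control replicate 4 (0.0383 points, exact permutation p = 0.0663). For the CpGs from 1 to 3 Mb alone, the excess over the rest of the autosomes was 0.450 points in PR and 0.387 points in Control sperm (exact permutation p = 0.00761, adjusted over the 16 comparisons 0.122), and this division was chosen after the data had been seen.

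No single CpG, window or gene at the ends passed. The quasi-binomial logistic model called 0 of the 4814 end CpGs at an adjusted p under 0.05, and 0% of all 204492. At an unadjusted p under 0.05 there were 174 at the ends, or 3.61%, against 3.79% of all CpGs, with 82 higher and 92 lower in PR sperm (1.89% and 1.90% of all CpGs are higher and lower). Of 656 windows 0 passed and 19 had an unadjusted p under 0.05, or 2.90%, against 0% and 3.33% of all 28743 windows. Of the 19, 11 were higher and 8 lower in PR sperm (1.64% and 1.69% of all windows are higher and lower). Of 311 gene spans 0 passed and 9 had an unadjusted p under 0.05, or 2.89%, against 0% and 3.17% of all 11401. Of the 9, 5 were higher and 4 lower in PR sperm (1.69% and 1.47% of all gene spans). The test on gene spans was added after the data had been seen. limma on percentages called 0 end CpGs and 0% of all, with 219 end CpGs at an unadjusted p under 0.05, or 4.55%, against 4.56% of all. It called 0 end windows and 0% of all, with 30 at an unadjusted p under 0.05, or 4.57%, against 4.75%. limma on logit values called 0 end CpGs and 0% of all, with 233 at an unadjusted p under 0.05, or 4.84%, against 4.56%. The median difference of the end CpGs was 0.0549 points, against 0 points over all CpGs. At the ends 2488 were higher and 2296 lower in PR sperm, against 101894 and 101726 of all CpGs. Of the end CpGs 5 differed by 10 points or more, or 0.104%, against 0.121% of all CpGs.

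The end CpGs ranked first by p in each direction did not pass, each with an adjusted p of 1 in the quasi-binomial model. Higher in PR sperm were CpGs in Tm9sf2, a membrane protein gene on chromosome 14 (122133891), at 99.8% ± 0.544 in PR and 94.4% ± 4.19 in Control sperm, in Fry on chromosome 5 (150369560) at 100% in each PR library and 94.3% ± 5.21 in Control sperm, and in Abhd5, a co-activator of fat cell lipolysis, on chromosome 9 (122361946) at 100% in each PR library and 95.7% ± 5.58 in Control sperm. Of the 7 Control libraries, 4 were also at 100% at the Abhd5 CpG, 2 at the Fry CpG and 1 at the Tm9sf2 CpG. Another 2 CpGs higher in PR sperm lay outside genes on chromosomes 16 and 18. Lower in PR sperm were CpGs in Prdm16 (chromosome 4, 154352417) at 95.2% ± 3.61, and in Ccdc91 (chromosome 6, 147506668) at 97.6% ± 2.01, each at 100% in the 7 Control libraries. The other 3 lay outside genes on chromosomes 6, 17 and 19, of which the one on chromosome 17 (94456129) was at 93.8% ± 1.94 in PR and 98.3% ± 1.05 in Control sperm. In Prdm16 the CpG had 25.5 reads on average, with 2 of the 8 PR libraries at 100%.

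The window with the smallest p includes that CpG of Prdm16. It (chromosome 4, 154352001 to 154353000, 8 CpGs) had a lowest, median and highest value of 96.6%, 97.6% and 98.4% in PR libraries and 98.2%, 99.3% and 100% in Control libraries, below the Control mean in 8 of 8 PR libraries. Its unadjusted p was 0.00369, the smallest among the end windows, and its adjusted p 0.999 in the quasi-binomial model. Over all 125 CpGs of the gene PR sperm was 97.7% and Control sperm 97.5%, so the window and the gene did not share a direction. A window within 2 kb of Slc25a10, the mitochondrial dicarboxylate carrier (chromosome 11, 120502001 to 120503000, 4 CpGs), was at 87.5% ± 3.18 in PR and 81.6% ± 3.11 in Control sperm, above the Control mean in 7 of 8 PR libraries. A window in Clybl, a mitochondrial lyase gene, gave 98.5% ± 0.922 in PR and 96.8% ± 1.54 in Control sperm, and one in the non-coding Gm10732 gave 97.5% ± 2.002 in PR and 94.4% ± 2.11 in Control sperm. Lower without passing were windows in Slc38a10, of an amino acid transporter family (97.2% ± 0.915 in PR and 98.9% ± 0.665 in Control sperm), Mansc4 (97.3% ± 0.871 in PR and 98.4% ± 0.760 in Control sperm) and Gm39562 (95.9% ± 2.98 in PR and 98.9% ± 1.29 in Control sperm). The other 3 of the 10 named windows lay outside genes on chromosomes 9, 11 and 16.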

How the data were processed

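RRBS counts from 8 PR and 7 Control sperm libraries were used, grouped by the diet in the labels; replicates are numbered in accession order and pair nothing. The deposited files give raw counts of methylated and of all reads per CpG, without normalization. Per the submitters' processing notes, Bismark 0.7.12, Bowtie2 2.1.0 and the build mm10 were used, with no roles stated. No source used here gives trimming, filters or strand merging. Counts ran from 6650912 to 11841657 per library. The labels name no molecular identifiers, so precision from counts covers counting error only.

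Percent methylation was methylated over total counts. Regional means weighted CpGs equally and were compared between diets by permuting the labels exactly over all 6435 splits (two-sided, smallest p 0.000155), with 95% intervals by inversion, and between regions within libraries with an exact sign-flip test. CpGs, windows of 1 kb and gene spans with at least 3 listed CpGs were tested over the whole list with a quasi-binomial logistic model (F test, 13 residual degrees of freedom, dispersion at least 1, Benjamini-Hochberg at 0.05), and with limma 3.58.1 as an alternative. Python 3.11.15, scipy 1.17.1 and R 4.3.3 were used. Gene spans and promoter sequences are RefSeq's, GRCm38.p6; promoter windows of chromosome 18 were not analysed here. The distance is from the last listed position, not from the telomere.

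Named CpGs and windows are the 5 with the smallest p in each direction, 1 per gene, plus the 5 lowest and the 5 most dispersed windows, the 10 genes with most CpGs, the 5 lowest genes and members of the lists. The members and lists were chosen with earlier results of these data known. Alternatives were weights, distance, coverage, window size, gene spans, tests and each library left out.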

Additional observations from a re-analysis of the deposited data

Results flagged for a closer look

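A library was singled out where its gap to the nearest other library of its diet was large against the range of that diet. Over 84 groups of libraries examined this happened 4 times, and chance gives about 1 in 20. Control replicate 4, the library with the most counts, was 0.526 points lower at the ends than over the rest of the autosomes (-0.526), where the other Control libraries were at -0.418 to -0.349. At the end of chromosome 9 PR replicate 6, the library with the fewest counts, was at 95.6%, against 96.1 to 96.4% in the other PR libraries. In the Hotair window PR replicate 5 was at 54.7%, against 47.1 to 50.3%. In the window on chromosome 1 (193516001 to 193517000) Control replicate 5 stood at 76.7%, and its group otherwise lay between 88.3% and 97.0%.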

How the results depend on the processing

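The difference between diets at the ends kept its direction and did not pass the exact permutation test in each of the 15 fits without 1 library (0.0261 to 0.107 points) and with other distances, coverage limits or equal weights for the ends. With CpGs weighted by their reads it was -0.0892 points (exact permutation p = 0.431). The lower level of the ends against the other autosomal CpGs held without each library (-0.378 to -0.361 points), with 1 Mb (-2.84), chromosomes weighted equally (-0.700), at least 20 reads (-0.942) and positions over 200 reads left out (-0.523), within and outside gene spans (-0.365 and -0.440) and without chromosome 13 (-0.184, added later). It was 9.69 points, reversed, with CpGs weighted by reads, and -1.01 points once positions over 200 reads were left out (added later); 535 of these lie outside the ends and 7 in them. With the last 1 Mb left out it was 0.421 points (added later), and with 5 Mb in place of 3 Mb -0.0140 points (exact sign-flip permutation p = 0.266). The difference between diets relative to the rest ran from 0.0383 to 0.0677 points without 1 library, and was 0.0448 points (exact permutation p = 0.531) for 1 Mb and 0.0177 points (p = 0.485, exact permutation) for 5 Mb; the cause was not tested. Counts of ends and windows called stayed 0 under each alternative. With the dispersion not held at 1 or above, 3 of the 4814 end CpGs passed, and 194 of all 204492 (0.0949%). The 3 lie in Ccl28, in Cdh4 and outside genes on chromosome 17, and were chosen after their values were seen. No paired analysis was possible because the labels give no replicate numbers shared between diets. The median coverage of 26 to 43 reads sets the counting error of a single CpG.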
